A study of Mus musculus with 10 samples.

Results

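The enzymes described here handle reactive oxygen species, glutathione and foreign or reactive compounds. They were chosen by gene symbol: the cytosolic glutathione S-transferases (Gsta, Gstm, Gsto, Gstp and Gstt genes), the glutathione peroxidases, the peroxiredoxins, the aldehyde dehydrogenases and a set of named genes from Nfe2l2 and Keap1 to Cyp1b1. Aldehyde dehydrogenases were taken only where the symbol has a number, a letter and a number, so Aldh2 is not among them. The rule found 75 of the 18407 genes in the deposited count table, and 56 of them had enough counts to be tested. The cells were NMC, a mouse line of normal cholangiocytes, which form the epithelium of the bile ducts. They were grown for 6 days in 3D as double spheroids, and poly(A) RNA was sequenced from 5 libraries in a laminin-rich matrix and 5 libraries in collagen I. The laminin-rich matrix was laminin mixed with collagen I at 3:1 by volume, so both matrices held collagen I, which was at 1 mg/mL in the collagen I cultures. All cultures came from the same line, kept in medium with 1.5% FBS, and none had another treatment.

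NRF2, the protein of Nfe2l2, is a transcription factor that KEAP1 holds at a low level by marking it for degradation. Oxidants and electrophiles release NRF2, which then drives many of these genes through antioxidant response elements, short motifs in promoters and enhancers. Glutathione peroxidases and peroxiredoxins reduce peroxides, using glutathione and thioredoxin that are kept reduced by NADPH. Transferases, epoxide hydrolase and aldehyde dehydrogenases remove reactive organic compounds, and cholangiocytes are exposed to many of these through bile.

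Values are CPM, counts scaled to a common library size with TMM factors, and a log2 difference is laminin-rich matrix minus collagen I. Library totals ran from 4425000 to 7468000 counts in laminin-rich matrix and from 4913000 to 8130000 in collagen I, and a count of 0 allows a level of up to 3 counts, or 0.365 to 0.691 CPM depending on the library. The labels give each library a code letter whose meaning is not stated. Laminin-rich replicates 1 to 3 carry E and replicates 4 and 5 carry F, whereas collagen I replicates 1 to 3 carry B and replicates 4 and 5 carry D. No letter occurs in both matrices, so letter and matrix cannot be told apart. Libraries also differed in how far counts leaned to long transcripts: the slope of the log2 deviation per doubling of transcript length ran from -0.115 to 0.163 in laminin-rich matrix and from -0.371 to 0.183 in collagen I, with both D libraries lowest. Of 16 cholangiocyte markers 12 reached a mean of 1 CPM, led by Krt8, Krt19 and Krt18, and their sum was 4833 ± 719 CPM in laminin-rich matrix and 5065 ± 819 CPM in collagen I (SD, n = 5 each). The 16 hepatocyte markers summed to 227 ± 25.4 CPM in laminin-rich matrix, with a range of 199.6 to 259.8, and to 214 ± 27.4 CPM in collagen I, with a range of 179 to 251, and Cyp3a11, Cyp2e1, Cyp2c29 and Ass1 had no count in any library. Of the 4 hepatocyte markers with enough counts to test, 3 had a positive and 1 a negative log2 difference, with a median of 0.68. Each had an edgeR unadjusted p below 0.05, as did 11.7% of all genes, and none passed an adjusted p of 0.05. Alb averaged 35.5 ± 16.7 CPM in laminin-rich matrix and 18.8 ± 5.02 CPM in collagen I, and Hnf4a 109 ± 27.5 CPM in laminin-rich matrix and 80.0 ± 15.3 CPM in collagen I. Trf went the other way, at 63.3 ± 21.6 CPM in laminin-rich matrix and 104.3 ± 15.3 CPM in collagen I. The summed fibroblast and stellate markers ran from 24.4 to 57.6 CPM in laminin-rich matrix and from 26.5 to 34.4 CPM in collagen I, with Lrat at 0. Of the 4 tested, 2 had a positive and 2 a negative log2 difference. Dcn averaged 3.47 ± 1.18 CPM in laminin-rich matrix and 8.10 ± 1.26 CPM in collagen I, with no overlap between libraries, while Pdgfra averaged 9.30 ± 3.98 CPM in laminin-rich matrix and 4.01 ± 1.15 CPM in collagen I. Leukocyte markers summed to 8.44 ± 2.00 CPM in laminin-rich matrix and 12.2 ± 3.12 CPM in collagen I, with Adgre1 at 0, and endothelial markers to at most 2.72 CPM in a laminin-rich and 2.32 CPM in a collagen I library, with Cdh5 and Kdr at 0. The part of such cells in the results was not tested. In bulk RNA, fewer cells of a type and less RNA per cell cannot be told apart.

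Promoters of 4 members are shown because they carry, or lack, the core of the antioxidant response element in genes the results come back to. Each is the 250 bases before the RefSeq start on GRCm38.p6, 5′ to 3′ on the gene's strand, and capitals mark a match to TGACNNNGC on either strand.
Prdx1 (chr4:116685349-116685598, plus strand): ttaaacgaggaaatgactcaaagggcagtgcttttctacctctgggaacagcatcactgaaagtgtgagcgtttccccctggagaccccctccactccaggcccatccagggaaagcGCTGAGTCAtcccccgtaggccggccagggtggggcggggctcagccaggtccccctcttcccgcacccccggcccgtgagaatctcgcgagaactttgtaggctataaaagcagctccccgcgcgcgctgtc
Txnrd1 (chr10:82858956-82859205, plus strand): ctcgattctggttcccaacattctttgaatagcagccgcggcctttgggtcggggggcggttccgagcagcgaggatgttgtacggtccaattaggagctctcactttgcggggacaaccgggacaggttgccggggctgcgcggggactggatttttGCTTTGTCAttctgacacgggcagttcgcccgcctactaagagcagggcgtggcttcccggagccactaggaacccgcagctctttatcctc
Gclm (chr3:122245307-122245556, plus strand): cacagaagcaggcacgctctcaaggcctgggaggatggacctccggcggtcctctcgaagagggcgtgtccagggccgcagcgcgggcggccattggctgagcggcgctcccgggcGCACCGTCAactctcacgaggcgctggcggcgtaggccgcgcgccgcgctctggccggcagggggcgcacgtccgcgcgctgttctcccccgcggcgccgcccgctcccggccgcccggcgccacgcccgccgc
Taldo1 (chr7:141391910-141392159, plus strand): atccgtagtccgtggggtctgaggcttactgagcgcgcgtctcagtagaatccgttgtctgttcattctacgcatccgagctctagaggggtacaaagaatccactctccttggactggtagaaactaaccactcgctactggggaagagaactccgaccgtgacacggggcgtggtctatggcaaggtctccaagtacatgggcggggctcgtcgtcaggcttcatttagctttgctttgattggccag
The match lay 133 bases before the start in Prdx1, 92 in Txnrd1 (the sequence shown belongs to 1 of its starts) and 134 in Gclm, each time on the opposite strand. Taldo1 had no match in this window. RefSeq gave 80 promoters for 64 of the 75 members, and 11 of the 80 (13.8%) held the motif, against 3338 of all 32851 mouse promoters in the table (10.2%). Such a match describes the letters only.

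Most of these enzymes were expressed in both matrices, many of them at high levels. The 75 members together took 0.857% ± 0.0584 of all counts in laminin-rich matrix and 0.903% ± 0.144 in collagen I (SD, n = 5 each), with ranges of 0.804% to 0.939% and 0.756% to 1.10% that overlapped. Of the 75 members, 30 averaged 100 CPM or more and 19 between 10 and 100 CPM. A further 7 were tested below 10 CPM, and 19 had too few counts to test. Between genes, levels can be compared only per length. Per kb of the longest annotated transcript, Gstm1, a transferase that couples glutathione to electrophiles, had 601 CPM per kb in laminin-rich matrix and 555 in collagen I. Prdx1, a cytosolic peroxiredoxin, had 405 CPM per kb in laminin-rich matrix and 450.5 in collagen I. Gstp1, Gpx4, Txn1 and Tkt followed with means over all libraries of 274, 270.3, 257 and 223 CPM per kb. Sod1 stood at 95.5 CPM per kb by its longest transcript of 3970 bases, but at 592 by its longest protein-coding transcript of 641 bases, so its place in this order depends on the transcript used.

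**Figure D1:**
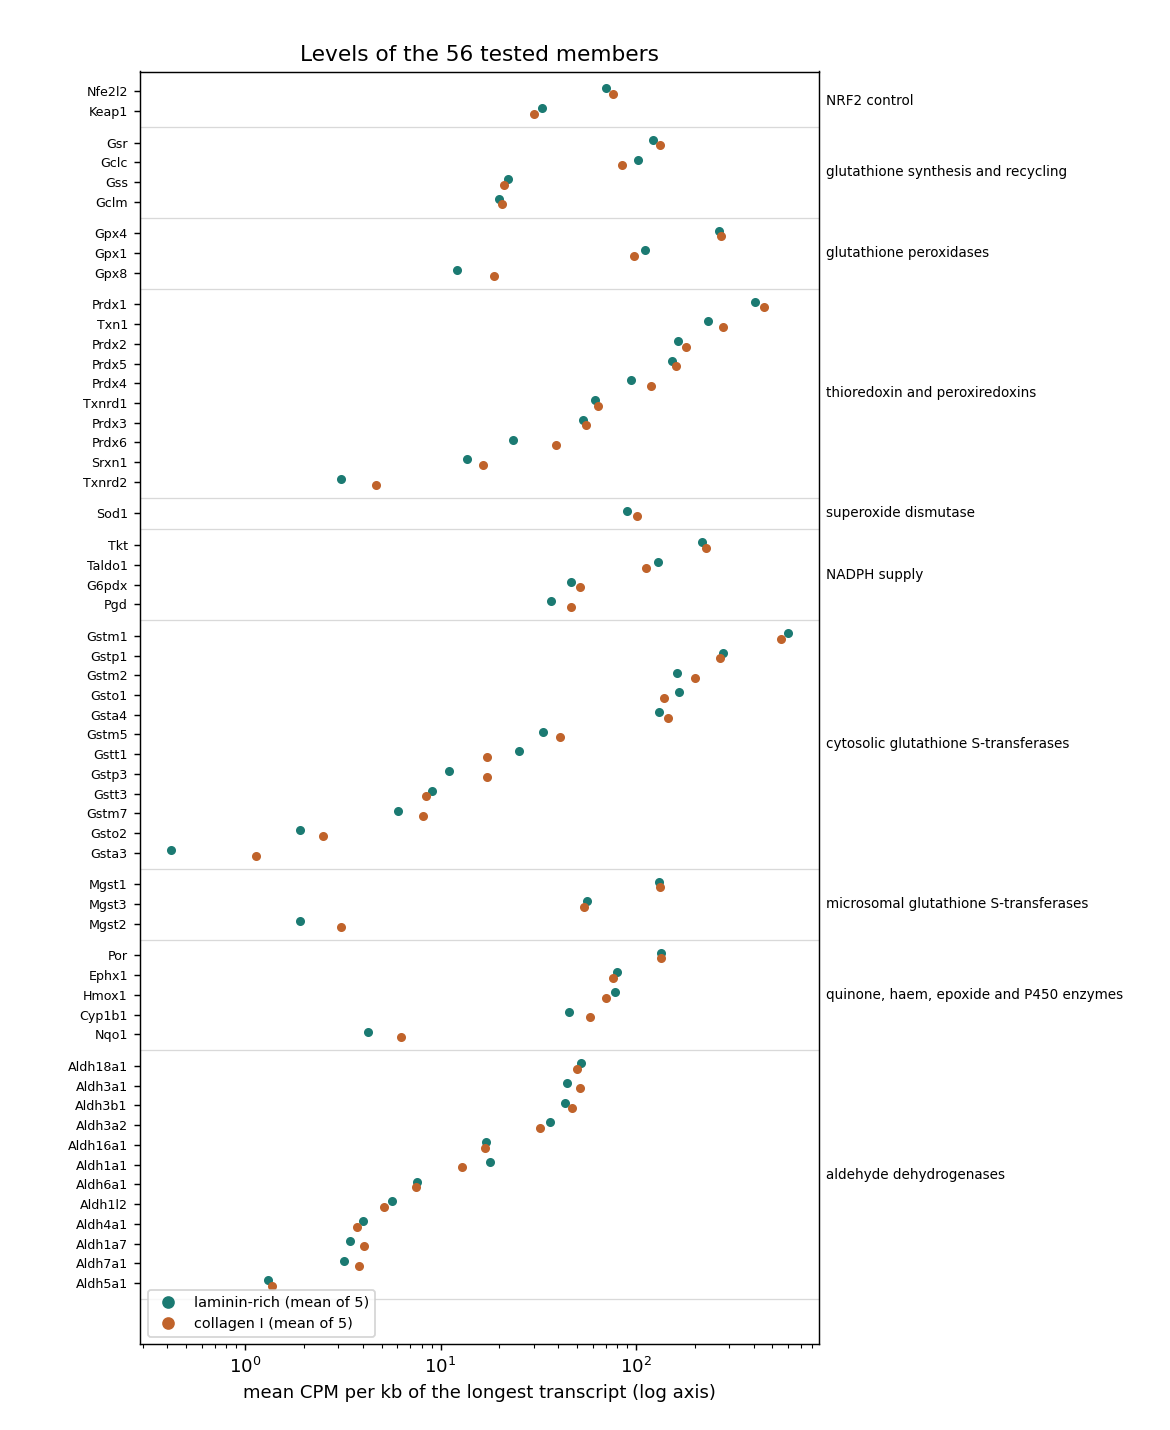
Mean CPM per kb of the longest transcript (log axis) for the 56 tested members, grouped by role, with laminin-rich matrix in green and collagen I in orange (mean of 5 libraries each). In most rows the 2 points lie close together, and levels within the larger role groups spread far more than the matrices do, from Gstm1 at the top of the transferases to Gsta3 at the bottom.

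No member passed the test between matrices. At an adjusted p below 0.05 in edgeR's quasi-likelihood test over all 10789 tested genes, 0 of the 56 tested members were called, where 0.148% of all genes (16) were, 0.139% with a higher and 0.00927% with a lower level in laminin-rich matrix. At an unadjusted p below 0.05 there were 10 of 56 members (17.9%), against 11.7% of all genes: 3 had a positive difference, against 6.7% of all genes, and 7 a negative one, against 4.95%. The 3 were Gclc, Gstt1 and Aldh1a1, and the 7 were Prdx6, Txnrd2, Prdx4, Nqo1, Mgst2, Gstm2 and Gpx8. For 0 of 56 members were the library values of the matrices fully apart, against 3.23% of all genes (1.94% higher and 1.3% lower in laminin-rich matrix). The median log2 difference of the members was -0.069, beside 0.0094 over all genes, and 36 of 56 (64.3%) lay below 0, against 48.3% of all genes. That lean turned without the D libraries: 25 of the 57 members tested then lay below 0, and the median was 0.041. Without the B libraries 44 of the 57 lay below 0, and the median was -0.31.

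**Figure D2:**
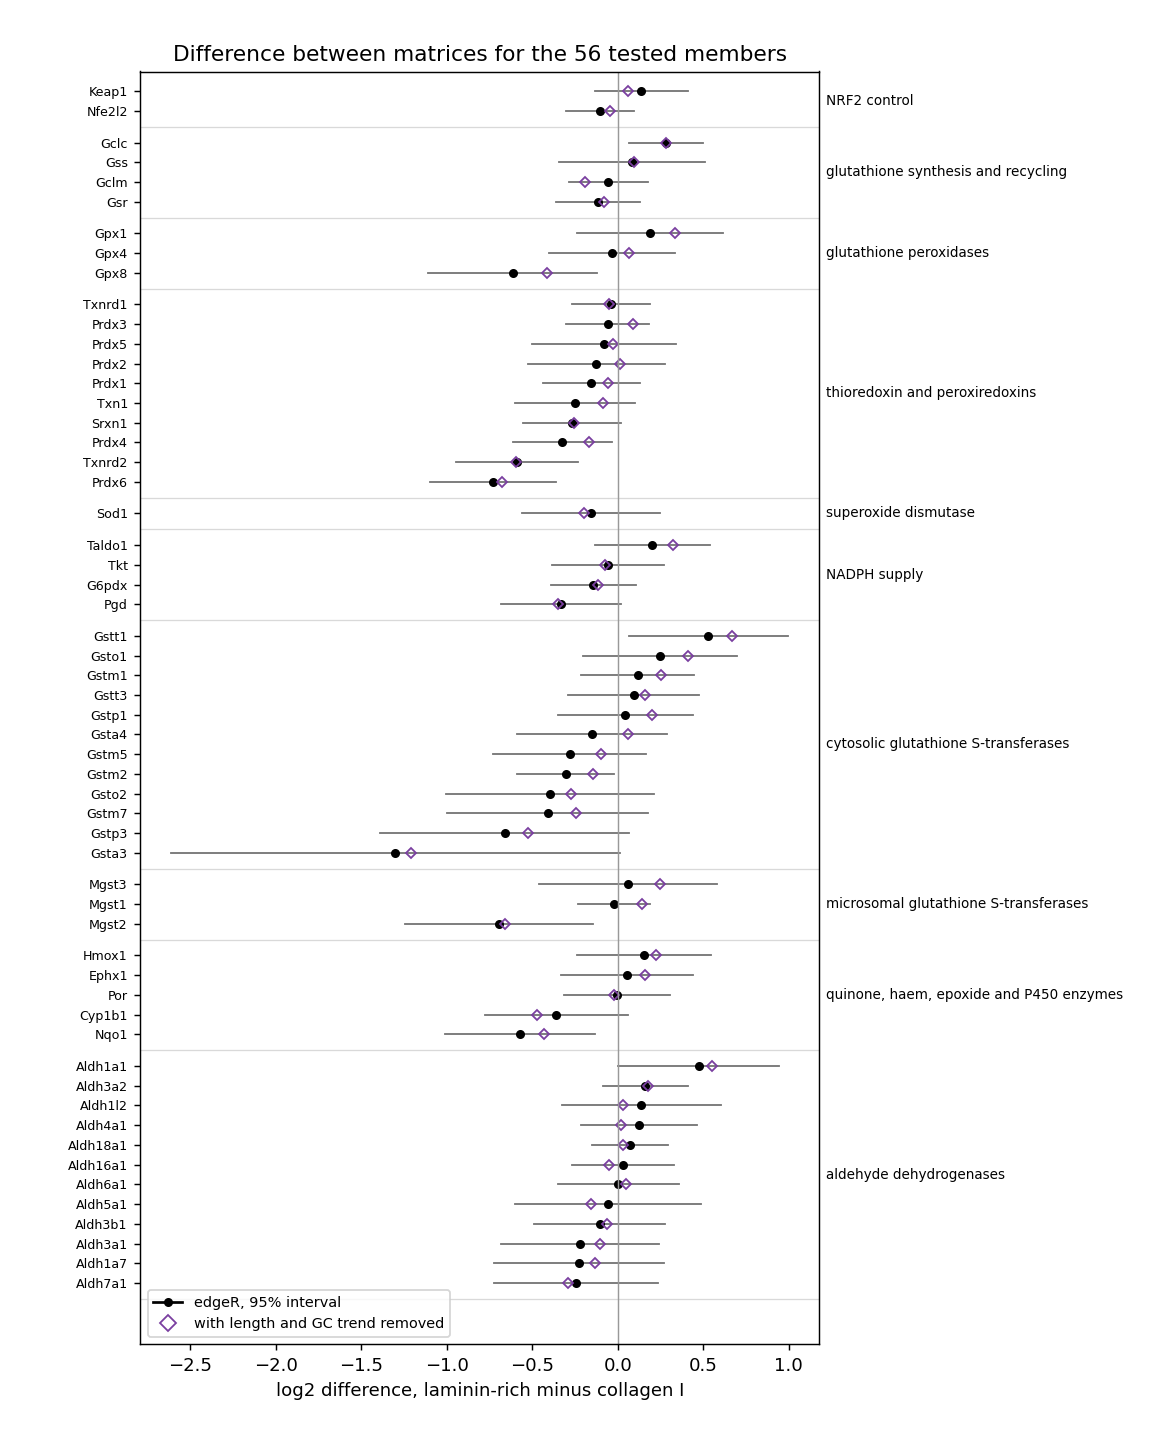
Log2 difference, laminin-rich minus collagen I, for the 56 tested members by role. Black points are edgeR estimates with 95% intervals, and open diamonds come from the fit that takes out each library's length and GC trend; Prdx6 has the lowest estimate of the peroxiredoxins at -0.73, and Gstt1 the highest of all at 0.53.

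Of the NRF2 pair, neither passed the test. Nfe2l2 had 157, 186, 173, 181 and 177 CPM in laminin-rich replicates 1 to 5, against 195, 211, 175, 181 and 176 CPM in collagen I replicates 1 to 5. The libraries of both matrices overlapped, and the log2 difference was -0.10 (SE 0.092, adjusted p = 0.704). Keap1, whose protein is NRF2's repressor, averaged 119.9 ± 15.4 CPM in laminin-rich matrix and 109 ± 15.6 CPM in collagen I, a log2 difference of 0.14 (SE 0.13, adjusted p = 0.720); its exons overlap Gm16754 on the opposite strand, and whether counting used strand is not given in the sources used here. These are RNA levels, whereas NRF2 is controlled mainly as a protein.

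Of the 4 genes that make and recycle glutathione, 2 had a positive and 2 a negative difference, and none passed the test. Gclc (GRCm38 chr9:77754535-77794485), the catalytic subunit of glutamate-cysteine ligase, which sets the rate of glutathione synthesis, had 340.0, 365, 358, 371 and 325 CPM in laminin-rich replicates 1 to 5, against 346, 299, 274, 265 and 264 CPM in collagen I replicates 1 to 5. Only collagen I replicate 1 reached the laminin-rich values. The log2 difference was 0.28 (SE 0.0997, adjusted p = 0.307) with a 95% interval of 0.066 to 0.50. Within collagen I it averaged lower in the D than in the B libraries, at a ratio of 0.864. Gclm, the modifier subunit of the same enzyme, averaged 111 ± 10.9 CPM in laminin-rich matrix and 116 ± 13.0 CPM in collagen I, a log2 difference of -0.054 (SE 0.11, adjusted p = 0.887). Gsr, glutathione reductase, averaged 329 ± 44.8 CPM in laminin-rich matrix and 356 ± 32.2 CPM in collagen I, a difference of -0.11 (SE 0.11, adjusted p = 0.753). Gss, glutathione synthetase, averaged 72.5 ± 15.3 CPM in laminin-rich matrix and 68.4 ± 18.2 CPM in collagen I, a difference of 0.086 (SE 0.20, adjusted p = 0.902); Gclm and Gss overlap genes on the opposite strand.

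Among the glutathione peroxidases only Gpx1, Gpx4 and Gpx8 were expressed at a testable level, and none of the 3 passed. Gpx4, which reduces lipid peroxides in membranes, had 272, 245, 228, 254 and 331 CPM in laminin-rich replicates 1 to 5, against 189, 218, 278, 366 and 309 CPM in collagen I replicates 1 to 5. Collagen I held both its lowest and its highest library, and the log2 difference was -0.033 (SE 0.17, adjusted p = 0.958). Gpx1, the widespread cytosolic peroxidase, had 101, 124, 113, 117 and 139 CPM in laminin-rich replicates 1 to 5, against 68.9, 71.1, 112, 147 and 123 CPM in collagen I replicates 1 to 5. Collagen I replicates 1 and 2 lay below every laminin-rich library and replicate 4 above them all, with a log2 difference of 0.19 (SE 0.20, adjusted p = 0.761). Leaving out single libraries moved it between 0.049 (adjusted p = 0.912) without collagen I replicate 1 and 0.34 (adjusted p = 0.558) without collagen I replicate 4. With each library's length and GC trend removed it was 0.33 (adjusted p = 0.117). Leaving out laminin-rich replicate 1 as well, Gpx1 passed (adjusted p = 0.0199), where 2.55% of all genes did. Gpx8, a peroxidase of the endoplasmic reticulum, had 11.2, 7.26, 10.9, 21.4 and 12.4 CPM in laminin-rich replicates 1 to 5, against 18.4, 21.1, 18.4, 20.1 and 19.4 CPM in collagen I replicates 1 to 5. Its collagen I values were close together, and laminin-rich replicate 4 was the one laminin-rich library above all 5 of them, and the log2 difference was -0.61 (SE 0.23, adjusted p = 0.325). Without that library Gpx8 passed, at -0.92 (adjusted p = 0.0402), where 0.333% of all genes did. Gpx3 had 1 count in all, and Gpx5, Gpx6 and Gpx7 had none, which allows at most 0.365 to 0.691 CPM per library.

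The thioredoxin and peroxiredoxin genes all had a log2 difference below 0, 10 of 10, with a median of -0.20, and none passed the test. The same 10 of 10 lay below 0 with DESeq2 size factors and with library size alone, but 7 of 10 did without the D libraries and 8 of 10 once each library's length and GC trend was removed. Prdx6 (GRCm38 chr1:161240112-161251219), a peroxiredoxin with a single active cysteine that also acts on phospholipids, had 75.0, 47.4, 54.8, 62.8 and 60.8 CPM in laminin-rich replicates 1 to 5, against 68.6, 90.7, 97.7, 129 and 113 CPM in collagen I replicates 1 to 5. Laminin-rich replicate 1 lay above collagen I replicate 1, and all other laminin-rich values lay below all collagen I values. The log2 difference was -0.73 (SE 0.17, adjusted p = 0.114) with a 95% interval of -1.10 to -0.36. DESeq2 called it, at -0.74 (adjusted p = 0.00790), where 1.94% of all genes were called. Without the D libraries it was -0.51 (adjusted p = 0.261), and without the B libraries -1.04 (adjusted p = 0.0204).

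Txnrd2 (GRCm38 chr16:18426384-18479073), the mitochondrial thioredoxin reductase, had 8.40, 8.90, 8.79, 10.8 and 7.60 CPM in laminin-rich replicates 1 to 5, against 10.6, 12.3, 13.7, 17.3 and 13.3 CPM in collagen I replicates 1 to 5. Laminin-rich replicate 4 narrowly exceeded collagen I replicate 1, and otherwise the matrices did not overlap. The log2 difference was -0.59 (SE 0.16, adjusted p = 0.203); its exons overlap another gene on the opposite strand. Prdx4, the peroxiredoxin of the endoplasmic reticulum, averaged 97.3 ± 17.4 CPM in laminin-rich matrix and 122 ± 15.6 CPM in collagen I, a log2 difference of -0.32 (SE 0.13, adjusted p = 0.366). Prdx1 had 1034, 853, 907, 771 and 1083 CPM in laminin-rich replicates 1 to 5, against 912, 943, 957, 1316 and 1039.6 CPM in collagen I replicates 1 to 5. The collagen I replicate 4 library was the highest and laminin-rich replicate 4 the lowest, and the log2 difference was -0.15 (SE 0.13, adjusted p = 0.695). Srxn1, sulfiredoxin, which repairs over-oxidised peroxiredoxins, averaged 38.6 ± 2.61 CPM in laminin-rich matrix and 46.5 ± 8.57 CPM in collagen I, a difference of -0.27 (SE 0.13, adjusted p = 0.459). Txnrd1, the cytosolic reductase, averaged 224 ± 26.3 CPM in laminin-rich matrix and 231 ± 19.5 CPM in collagen I, a difference of -0.040 (SE 0.10, adjusted p = 0.915). The other members, Txn1, Prdx2, Prdx3 and Prdx5, lay between -0.25 and -0.057, and Prdx2 and Prdx5 overlap genes on the opposite strand.

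Sod1, the superoxide dismutase of the cytosol, had 414, 334, 297, 278 and 469 CPM in laminin-rich replicates 1 to 5, against 296, 318, 398, 538 and 449.8 CPM in collagen I replicates 1 to 5. The ranges overlapped, and the log2 difference was -0.16 (SE 0.19, adjusted p = 0.794).

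The 4 genes of the pentose phosphate pathway, which supplies NADPH, had 1 positive and 3 negative differences, and none passed the test. Taldo1 (GRCm38 chr7:141392199-141402968), transaldolase, had 199, 161, 167, 149 and 208 CPM in laminin-rich replicates 1 to 5, against 117, 129.6, 143, 201 and 179 CPM in collagen I replicates 1 to 5. The 3 B libraries were the lowest of the 10, and the D libraries lay among the laminin-rich ones. The log2 difference was 0.20 (SE 0.16, adjusted p = 0.654). G6pdx, the first and rate-limiting enzyme of the pathway, averaged 124 ± 13.3 CPM in laminin-rich matrix and 137 ± 17.4 CPM in collagen I, a difference of -0.14 (SE 0.11, adjusted p = 0.670); it overlaps Ikbkg on the opposite strand. Pgd, the second NADPH-forming enzyme, averaged 134 ± 26.2 CPM in laminin-rich matrix and 169 ± 34.6 CPM in collagen I, a difference of -0.33 (SE 0.16, adjusted p = 0.4499). Tkt, transketolase, averaged 705 ± 135 CPM in laminin-rich matrix and 733 ± 122 CPM in collagen I, a difference of -0.057 (SE 0.15, adjusted p = 0.915).

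**Figure D3:**
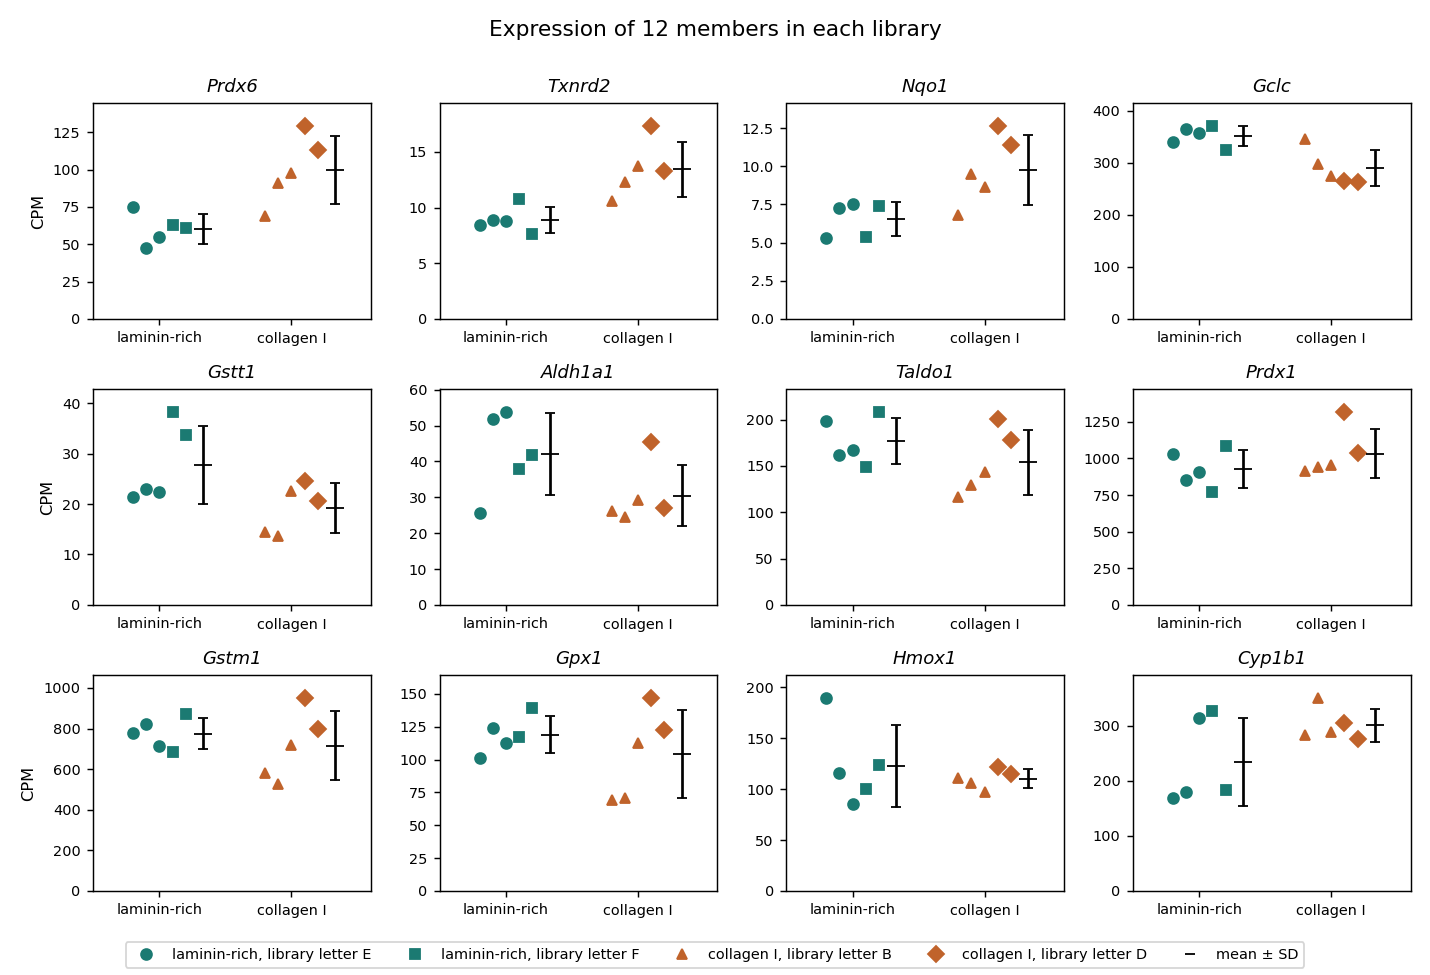
CPM of 12 members in each library (linear axis from 0). Circles and squares are laminin-rich libraries of letters E and F. Triangles and diamonds are collagen I libraries of letters B and D, and black bars the mean ± SD (n = 5). For Prdx6 and Txnrd2 nearly all laminin-rich points lie below the collagen I points. Both D libraries sit above all B libraries for Prdx6, Nqo1, Taldo1, Prdx1, Gstm1, Gpx1 and Hmox1, and below them for Gclc.

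Of the 20 cytosolic glutathione S-transferases, 12 could be tested: 5 had a positive and 7 a negative difference, and none passed. Reads of Gstm, Gsta and Gstp genes may be shared between near-identical copies, so single members of these families are uncertain. Gstm1 had 779, 821, 716, 686 and 873 CPM in laminin-rich replicates 1 to 5, against 579, 528, 719, 949 and 799.7 CPM in collagen I replicates 1 to 5. The collagen I libraries spread more widely than the laminin-rich ones, and the log2 difference was 0.12 (SE 0.15, adjusted p = 0.817). Gstt1, a theta-class transferase that acts on small halogenated compounds, had 21.4, 23.1, 22.4, 38.2 and 33.6 CPM in laminin-rich replicates 1 to 5, against 14.5, 13.6, 22.6, 24.6 and 20.5 CPM in collagen I replicates 1 to 5. Laminin-rich replicates 4 and 5 (letter F) were the highest and collagen I replicates 1 and 2 the lowest, with overlap between. Its log2 difference of 0.53 (SE 0.22, adjusted p = 0.355) was the largest positive one among the members. Gstm2 averaged 173 ± 18.1 CPM in laminin-rich matrix and 214 ± 38.5 CPM in collagen I, a difference of -0.30 (SE 0.13, adjusted p = 0.394). The lowest estimate, -1.30 for Gsta3, rested on few counts: 0.560, 1.27, 1.92, 2.10 and 0 CPM in the laminin-rich libraries and 1.84, 3.93, 1.09, 6.92 and 2.09 CPM in the collagen I libraries. Gsto1 averaged 196 ± 39.6 CPM in laminin-rich matrix and 165 ± 52.3 CPM in collagen I, Gstp1 228 ± 30.7 CPM in laminin-rich matrix and 221 ± 62.8 CPM in collagen I and Gsta4 128 ± 9.19 CPM in laminin-rich matrix and 142 ± 54.2 CPM in collagen I, with differences of 0.25, 0.044 and -0.15. Gsta1, Gsta2, Gstm3, Gstm4, Gstm6, Gstp2 and Gstt2 had at most 18 counts in any library, and Gstt4 had none.

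Of the 3 microsomal transferases none passed the test. Mgst1, an abundant membrane-bound transferase and peroxidase, had 146, 147, 145, 152 and 173 CPM in laminin-rich replicates 1 to 5, against 156, 151, 139, 179 and 149.8 CPM in collagen I replicates 1 to 5. Its values were close together in both matrices, and the log2 difference was -0.022 (SE 0.098, adjusted p = 0.950). Mgst2, which can also form leukotriene C4, had 6.72, 4.90, 5.44, 3.60 and 5.99 CPM in laminin-rich replicates 1 to 5, against 6.21, 5.53, 8.51, 12.01 and 11.1 CPM in collagen I replicates 1 to 5. The 2 D libraries and collagen I replicate 3 lay above all others, and the log2 difference was -0.70 (SE 0.25, adjusted p = 0.316). Mgst3 averaged 61.7 ± 13.1 CPM in laminin-rich matrix and 59.2 ± 23.0 CPM in collagen I.

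Nqo1 and Hmox1, classic NRF2 targets, were far apart in level. Nqo1 (GRCm38 chr8:107388225-107403206), the quinone reductase, had 4.23 CPM per kb in laminin-rich matrix and 6.29 in collagen I, while Hmox1, the haem oxygenase, had 78.3 CPM per kb in laminin-rich matrix and 70.4 in collagen I. By library, Nqo1 had 5.32, 7.26, 7.51, 5.39 and 7.37 CPM in laminin-rich replicates 1 to 5, against 6.78, 9.46, 8.63, 12.6 and 11.4 CPM in collagen I replicates 1 to 5. Collagen I replicate 1 lay within the laminin-rich range and the other 4 above it, and the log2 difference was -0.57 (SE 0.20, adjusted p = 0.307). Hmox1 had 189, 116, 85.1, 99.96 and 124 CPM in laminin-rich replicates 1 to 5, against 111, 106, 97.1, 122 and 115 CPM in collagen I replicates 1 to 5. Laminin-rich replicate 1 stood well above all other libraries, and the log2 difference was 0.16 (SE 0.18, adjusted p = 0.790). Without it the estimate was -0.056 (adjusted p = 0.888). Cyp1b1, a P450 that metabolises aromatic hydrocarbons and oestrogens, had 168, 179, 314, 327 and 182 CPM in laminin-rich replicates 1 to 5, against 283, 349.5, 288, 305 and 276 CPM in collagen I replicates 1 to 5. Laminin-rich replicates 1, 2 and 5 were low and replicates 3 and 4 lay within the collagen I values, and the log2 difference was -0.36 (SE 0.19, adjusted p = 0.497). Ephx1, the microsomal epoxide hydrolase, averaged 139 ± 25.1 CPM in laminin-rich matrix and 134 ± 35.1 CPM in collagen I, a difference of 0.056 (SE 0.18, adjusted p = 0.930). Por, which passes electrons to microsomal P450s, averaged 355 ± 41.8 CPM in laminin-rich matrix and 356 ± 71.5 CPM in collagen I, a difference of -0.0022 (SE 0.14, adjusted p = 0.997).

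Of the 19 aldehyde dehydrogenases 12 could be tested, and none passed: 7 had a positive and 5 a negative difference, or 6 and 6 with DESeq2 size factors or library size alone. Aldh1a1, which oxidises retinaldehyde to retinoic acid, had 25.6, 51.9, 53.7, 37.9 and 41.7 CPM in laminin-rich replicates 1 to 5, against 26.1, 24.5, 29.2, 45.4 and 27.0 CPM in collagen I replicates 1 to 5. Laminin-rich replicate 1 lay among the collagen I libraries, and collagen I replicate 4 among the laminin-rich ones. The log2 difference was 0.47 (SE 0.22, adjusted p = 0.424); Aldh1a7 is a close copy. Aldh3a2, the fatty aldehyde dehydrogenase of the endoplasmic reticulum, averaged 112 ± 14.9 CPM in laminin-rich matrix and 100.2 ± 9.45 CPM in collagen I, a difference of 0.16 (SE 0.11, adjusted p = 0.623). Aldh18a1, the mitochondrial enzyme that starts proline synthesis from glutamate, averaged 185 ± 25.6 CPM in laminin-rich matrix and 176 ± 5.46 CPM in collagen I, a difference of 0.071 (SE 0.10, adjusted p = 0.840). Of the aldehyde dehydrogenases among the members it had the highest level per kb, at 51.1 CPM per kb. The retinaldehyde dehydrogenases Aldh1a2 and Aldh1a3 had at most 3 counts in a library, and Aldh1b1, Aldh1l1, Aldh3b2, Aldh3b3 and Aldh8a1 were also too low to test.

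Within collagen I the members differed by library letter. In 33 of 56 members (58.9%) both D libraries lay above all 3 B libraries, against 28.2% of all tested genes. In 4 of 56 (7.14%) both lay below, against 30.8%. This split was looked at after the data were seen and has no test. The median ratio of the D to the B mean was 1.31 over the members and 1.00 over all genes. Among tested members it ran from 0.612 for Aldh1l2 to 1.97 for Gsta3, and Gsta4 (1.77), Gpx1 (1.601) and Prdx5 (1.50) were among the higher ones. The members' transcripts were short, with a median of 2180 bases against 3487 over all tested genes, and the D libraries leaned most to short transcripts. By library, the members' median log2 deviation from their own means was 0.037, -0.080, -0.10, -0.12 and 0.092 in laminin-rich replicates 1 to 5, against -0.20, -0.10, 0.035, 0.40 and 0.20 in collagen I replicates 1 to 5. With each library's length and GC trend removed it was 0.060, 0.0021, -0.067, -0.035 and -0.0030 in laminin-rich matrix, against -0.066, -0.027, 0.0003, 0.12 and 0.064 in collagen I. The D libraries were still the highest, by less, and only collagen I replicate 4 stood apart. Collagen I replicate 5, at 0.064, lay barely above laminin-rich replicate 1, at 0.060. Whether transcript length, letter or culture set these levels was not tested.

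**Figure D4:**
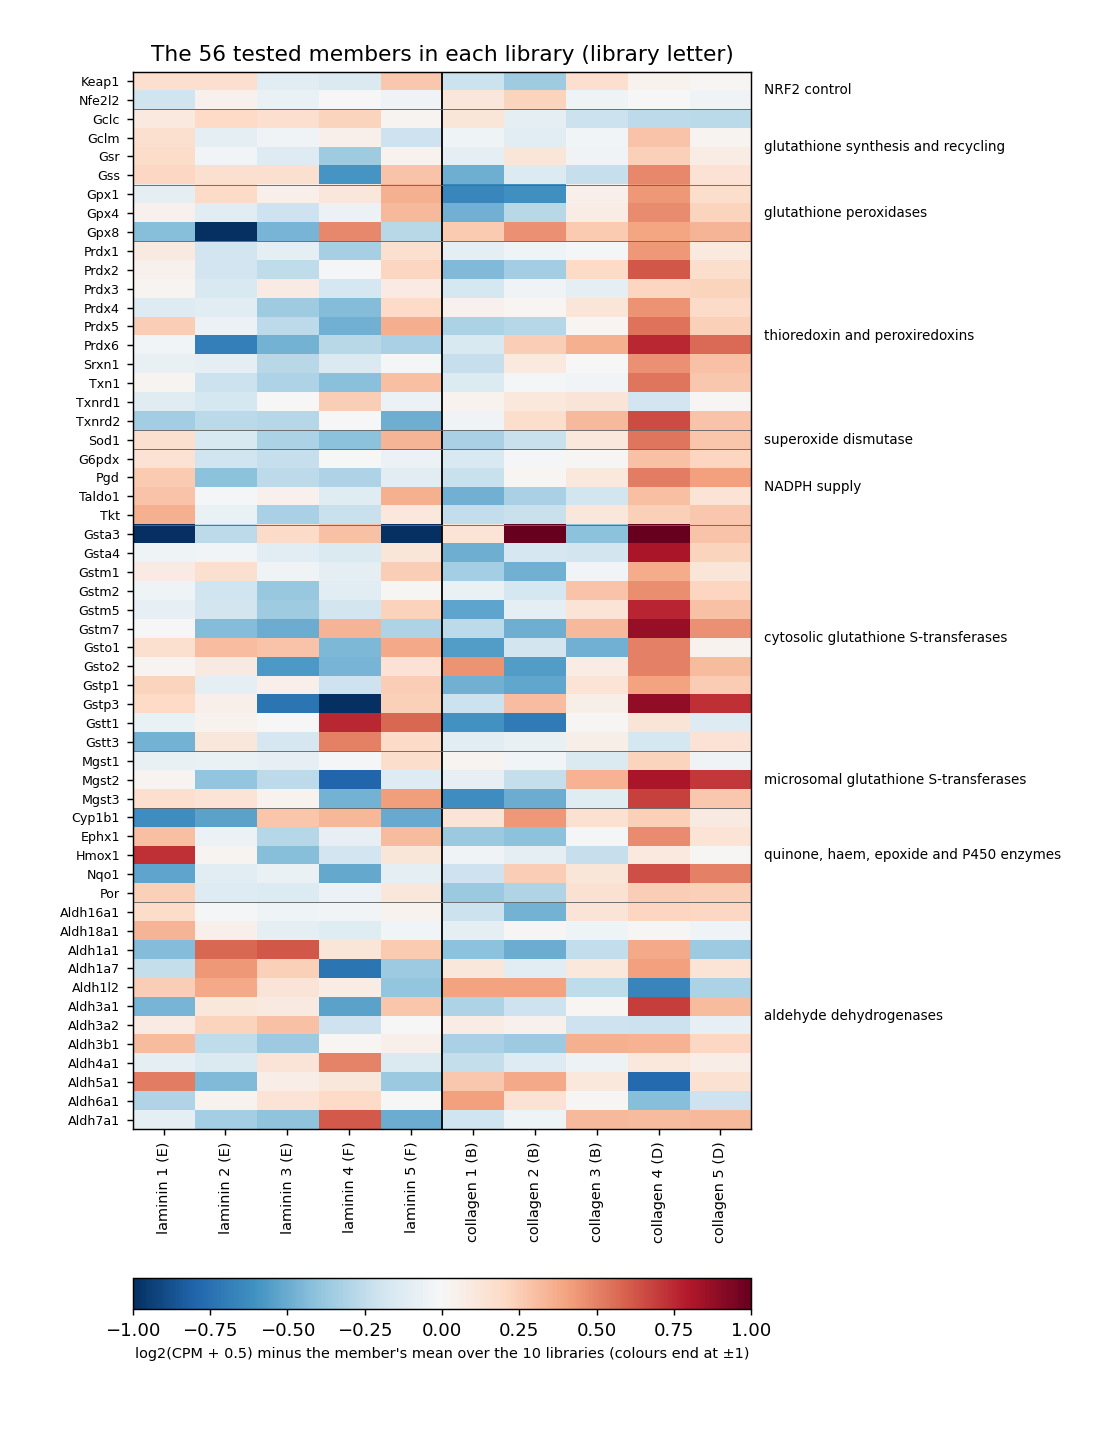
Log2(CPM + 0.5) of the 56 tested members in each library, minus the member's mean over the 10 libraries, with laminin-rich libraries left of the black line, collagen I libraries right of it and library letters in brackets. Collagen I replicate 4 is red in most rows, and no column of the laminin-rich libraries is of 1 colour.

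**Figure D5:**
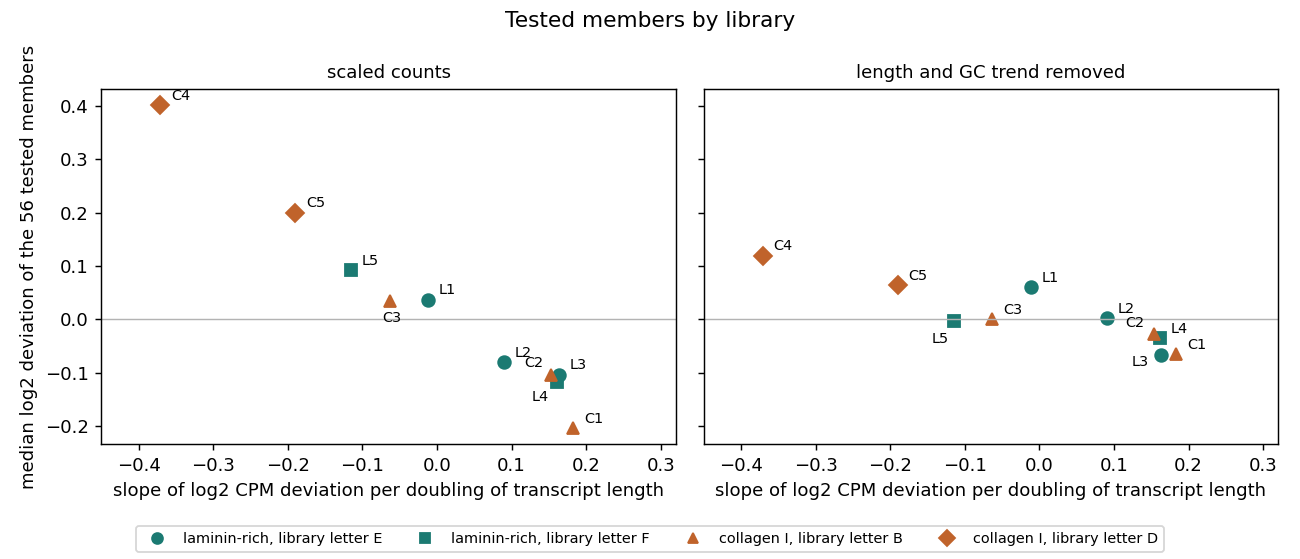
Median log2 deviation of the 56 tested members in each library against the library's slope on transcript length, for scaled counts (left) and after removal of the length and GC trend (right). L1 to L5 are laminin-rich and C1 to C5 collagen I libraries; on the left C4 and C5 are highest at 0.40 and 0.20, and on the right the points lie between -0.067 and 0.12.

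With the length and GC trend of each library removed in the edgeR fit, 2 of 56 members (3.57%) passed the adjusted p of 0.05, against 0.964% of all genes. Prdx6 was lower in laminin-rich matrix, at -0.68 (adjusted p = 0.0433), as were 0.241% of all genes, and Taldo1 was higher, at 0.33 (adjusted p = 0.0433), as were 0.723% of all genes. Both calls were narrow. Leaving out single libraries gave Prdx6 an adjusted p from 0.0187 to 0.137 and a log2 difference from -0.77 to -0.59; the call held without laminin-rich replicate 1 or 4 or collagen I replicate 1 and was lost without each of the other libraries. For Taldo1 the adjusted p ran from 0.0208 to 0.118 and the difference from 0.30 to 0.36, and the call held only without laminin-rich replicate 1 or 4. Of the other members, Gclc was at 0.29 (adjusted p = 0.102), Txnrd2 at -0.59 (adjusted p = 0.0687), Gstt1 at 0.67 (adjusted p = 0.0986) and Gstm1 at 0.25 (adjusted p = 0.111). With the trend removed, the library values of the matrices were fully apart for Taldo1 and Gstm1 (higher in laminin-rich matrix) and Txnrd2 (lower). The share of all genes fully apart was not counted in this setting. The median over the members was then -0.052, against -0.0045 over all genes, with 24 members above and 32 below 0. Because matrix plays no part in fitting the trend, differences between matrices that go with length or GC content are taken out with it.

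Set against the D libraries alone, without the B libraries, 11 of 57 members (19.3%) passed, against 18.9% of all genes. Of the 11018 genes tested then, 1206 were called higher and 877 lower in laminin-rich matrix. Collagen I rested on replicates 4 and 5 alone, whose counts leaned most to short transcripts, and the trend was not removed. Gclc was higher in laminin-rich matrix, at 0.39 (adjusted p = 0.0372). The other 10 were lower: Prdx6, Mgst2 at -1.14 (adjusted p = 0.0232), Nqo1 at -0.90 (adjusted p = 0.0308), Txnrd2 at -0.80 (adjusted p = 0.0308), Pgd at -0.63 (adjusted p = 0.0279), Srxn1, Gsta4, Gstm2, Gstm5 and Gstm7. Set against the B libraries alone, 0 of 57 members passed, against 0.0456% of all genes. At an unadjusted p below 0.05 there were 10 (17.5%), against 11.6% of all genes. These 10 leaned to positive differences, whereas the 10 of the main test leaned to negative ones. Gstt1, Gsto1, Aldh1a1, Gpx1, Mgst3, Taldo1 and Gstm1 had positive log2 differences, from 0.35 for Gstm1 to 0.70 for Gstt1. Prdx6, Txnrd2 and Gpx8 had negative ones, from -0.60 for Gpx8 to -0.45 for Txnrd2.

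Other genes of the same pathways, on 4 lists, held no called gene either. Of 123 listed genes (34 antioxidant and redox genes, 24 glutathione genes, 52 xenobiotic enzymes and receptors, and 13 NRF2 partners and repressors) 121 were in the table and 102 tested. None passed, 0 of 102; 45 had a positive and 57 a negative difference, with a median of -0.042. At an unadjusted p below 0.05 there were 18 of 102 (17.6%), against 11.7% of all genes. Of these 18, 12 were positive and 6 negative, where 723 of all genes were positive and 534 negative at that p. Sult1c2, a cytosolic sulfotransferase, had 133, 217, 189, 156 and 202 CPM in laminin-rich replicates 1 to 5, against 132, 119, 126, 129.8 and 111 CPM in collagen I replicates 1 to 5. Every laminin-rich library lay above every collagen I library, and the log2 difference was 0.54 (SE 0.13, adjusted p = 0.137). With the length and GC trend removed Sult1c2 passed, at 0.66 (adjusted p = 0.0176). Glrx, glutaredoxin, had 18.6, 19.1, 19.5, 22.8 and 22.6 CPM in laminin-rich replicates 1 to 5, against 14.4, 10.4, 16.8, 16.9 and 13.6 CPM in collagen I replicates 1 to 5. Its libraries did not overlap either, with a difference of 0.51 (SE 0.15, adjusted p = 0.226). Akr1c12, an aldo-keto reductase, averaged 5.42 ± 0.629 CPM in laminin-rich matrix and 9.17 ± 1.80 CPM in collagen I, and Ptges, which makes prostaglandin E2 with glutathione as cofactor, averaged 1.75 ± 0.674 CPM in laminin-rich matrix and 3.54 ± 0.551 CPM in collagen I. Their differences were -0.74 (SE 0.19, adjusted p = 0.142) and -0.99 (SE 0.27, adjusted p = 0.193), again without overlap between libraries. In all, 8 of the 102 (7.84%) did not overlap, against 3.23% of all genes. Of the 8, 2 were higher and 6 lower in laminin-rich matrix, where 1.94% of all genes were higher and 1.3% lower. With the trend removed 3 of 102 (2.94%) passed, against 0.964% of all genes: Sult1c2, Selenow at 0.51 (adjusted p = 0.0411), which encodes a selenoprotein, and Abcc4, an exporter, which was lower at -0.37 (adjusted p = 0.0476).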

How the data were processed

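The deposited table holds the authors' raw read counts, whole numbers by gene symbol, in 1 column per library and without normalization. The submitters' processing notes name GRCm38 (mm10) as build and DESeq2 as tool; which aligner, counter, strand setting and annotation were used is not given in the sources used here. Libraries were stranded poly(A) libraries from 30 ng of RNA, per the labels' protocols. Genes were filtered with filterByExpr, scaled by TMM and compared with edgeR 4.0.16 in R 4.3.3 (two-sided quasi-likelihood F test with matrix alone in the model). Benjamini-Hochberg adjustment covered the 10789 tested genes, and calls were made at 0.05. The samples are called biological replicates, but how cultures were split is not said, and p-values reflect only the spread seen among them. SE is the log2 difference divided by the square root of F. Limits from a count of 0 cover counting error only. Positions and lengths came from GENCODE M21, matched by symbol for 99.9% of tested genes. The length and GC trend was a spline with 5 degrees of freedom each, fitted per library and entered as an offset. Promoters came from RefSeq. Alternatives were DESeq2 1.42.0, limma-voom (3.58.1), other scalings and filters, a replicate block, the offset and libraries left out. Steps were run on counts simulated from the means, spread and trends of these data, which checks the code and not the part of the library letters. The members and lists were chosen with earlier results of these data known. Named genes were fixed NRF2-pathway genes, the 5 lowest p-values per direction, the highest level per kb in each role group and the 2 lowest p-values per direction of the pathway lists; any other gene was named with its values in view. The closest replicates, collagen I 1 and 2, differed beyond sampling noise (chi-square per degree of freedom 3.32). Results for some other genes are not reported here.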

Additional observations from a re-analysis of the deposited data

Results flagged for a closer look

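Aldh1a1 in collagen I replicate 4 was at 5.51 log2 CPM, above the next collagen I library at 4.88. Mgst1 in laminin-rich replicate 5 was at 7.44 log2 CPM, above the next laminin-rich library at 7.25. Each was marked because the gap to its neighbour took up most of the range of its group of 5. Of 66 groups of named genes looked at, 2 were marked, and chance marks about 5% (3.3).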

How the results depend on the processing

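The median SE of the tested members' log2 differences was 0.177, beside 0.159 over all genes, or 0.116 beside 0.118 with the length and GC offset. Over all genes, 16 were called, against 209 by DESeq2, 29 with no filter, 104 with the offset, 134 with an offset on protein-coding length (chosen after seeing the data), 5 without the D libraries and 2083 without the B libraries. Leaving out single libraries, with or without the offset, gave 0 to 276 genes, 0 to 3 members called higher and 0 to 3 called lower. The largest shares came with the offset. Without laminin-rich replicate 4, 8.93% of 56 members passed, against 2.39% of all genes: Gsto1 and Taldo1 higher and Gpx8, Prdx6 and Txnrd2 lower. Without laminin-rich replicate 1 it was 7.14%, against 2.55%: Gpx1, Gstt1 and Taldo1 higher and Prdx6 lower. Without collagen I replicate 1, Gclc and Prdx6 passed (3.57%, against 0.703%). Members called higher were 0, but 1 with either offset and 1 without the B libraries. Members called lower were 0, but 1 by DESeq2, 1 with either offset and 10 without the B libraries. Replicate numbers showed no sign of pairing the samples. After subtraction of each gene's mean in its own matrix, the deviations of same-numbered libraries correlated between -0.33 and 0.48. No laminin-rich library correlated best with the collagen I library of its own number. These deviations still hold each library's length trend, so they cannot exclude a pairing. With the replicate number as a block 0 genes and 0 members were called, or 12 genes and 0 members with the offset as well.

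For single genes, 961 alternative values kept the direction and the side of the threshold, 36 passed it and 59 changed sign; the cause was not tested. Without the D libraries the log2 difference was 0.037 for Gclm, 0.087 for Sod1, 0.22 for Gpx4, 0.098 for Tkt, 0.037 for Mgst1 and 0.17 for Por. Without the B libraries it was -0.21 for Gpx1, 0.042 for Txnrd1, -0.29 for Ephx1, -0.13 for Taldo1 and -0.20 for Gstm1. With the offset it was 0.068 for Gpx4 and 0.14 for Mgst1, with the block added 0.069 and 0.14, and with protein-coding length 0.070 for Gpx4, 0.14 for Mgst1 and 0.031 for Sod1. Por was at 0.015 by limma-voom and 0.013 with the block. Leaving out single libraries, with or without the offset, gave -0.056 to 0.31 for Hmox1, -0.30 to 0.016 for Gclm, -0.22 to 0.042 for Prdx1, -0.056 to 0.21 for Ephx1, -0.16 to 0.11 for Gpx4, -0.17 to 0.0040 for Tkt, -0.072 to 0.19 for Mgst1, -0.11 to 0.060 for Por and -0.052 to 0.090 for Aldh18a1.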
